A study of Mus musculus with 6 samples.

Results

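The potassium, pacemaker, and sodium channel genes were examined in HL-1 cells, a line derived from mouse atrial cardiomyocytes, after silencing of the lncRNA Malat1. A gene was taken as a member if its name starts with Kcn, or with Hcn or Scn and a digit, if it is protein coding, and if its mean over the 6 libraries was at least 5 normalized counts. This gave 33 genes among the 15650 genes with such a mean and the 21269 genes of the table, and 18 further protein-coding genes with these names lay under the mean of 5. A control LNA-gapmer (LNA Control, 3 libraries) or an LNA-gapmer against Malat1 (LNA Malat1, 3 libraries) was transfected at 50 nM into cells plated 24 hours earlier, and RNA was taken 48 hours later. An LNA-gapmer is a short DNA strand with locked ends that directs the cleavage of the RNA it pairs with. Both groups are the same cell line, kept in Claycomb medium with serum and norepinephrine, and the groups differ only in the gapmer that the labels name. The labels do not say that the libraries came from separate cultures, so the p-values measure the spread between these libraries, which may be technical.

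In a cardiac cell, sodium channels open first and carry the upstroke of the action potential, and several potassium channels then open in turn and bring the membrane back to rest. Voltage-gated potassium channels do this in the course of the beat, and inward rectifiers and tandem-pore channels hold the resting potential. HCN channels carry the inward pacemaker current that helps nodal cells depolarize on their own. Most pores work together with accessory subunits, which set how many channels reach the membrane and how fast they gate.

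The values are counts of reads per gene that the authors normalized between libraries and rounded to whole numbers, called normalized counts here, and they summed to between 4758777 and 4921406 per library. Malat1 itself had 5051, 5197, and 4369 normalized counts in the LNA Control libraries and 2833, 2792, and 2732 in those of LNA Malat1. Of 12 cardiomyocyte marker genes, 9 had a mean of at least 5, with Ryr2 highest at a mean of 2394.5 normalized counts, whereas Myh6 was nearly absent, with 0 to 7 per library, and Nppa and Sln were not analysed here. Of 6 neuronal markers, 4 had a row, and their sum was 8 to 10 in LNA Control and 36 to 41 in LNA Malat1, most of it Tubb3. Rbfox3 had 0 to 1 and 4 to 9, Syt1 had 0 to 1 and 2 to 4, and Snap25 had 0 and 1 to 3 in these groups. Cd68, the immune marker with a row, moved from 14 to 23 up to 31 to 38 (called higher, limma, BH-adjusted p = 0.023). The sum of Tek and Pecam1 of endothelium was 19 to 28 and 32 to 35. Neither Tek nor Pecam1 was called (limma, BH-adjusted p = 0.65 and 0.1). Rises were common at such levels, since 17.2% of all genes with a mean from 5 to below 20 were called higher. From 20 to below 100 it was 15.4%. The cardiomyocyte sum, led by Ryr2, was 5357 to 5725 in LNA Control and 5088 to 5294 in LNA Malat1. Its genes moved in both directions. Actn2 was called higher (log2 fold change 0.71, limma, BH-adjusted p = 0.0011). Below the 1.5-fold minimum, Tnnt2 was higher by 0.15 on the log2 scale (limma, BH-adjusted p = 0.034). Pln, Gata4, and Tbx5 were lower by 0.25, 0.21, and 0.22 (limma, BH-adjusted p = 0.0037, 0.0079, and 0.045). The fibroblast sum, nearly all of it Col1a1 with a mean of 2022.7, was 1953 to 2530 and 1824 to 1957, and that of smooth muscle was 1211 to 1383 and 1244 to 1353. The part of these differences in the channel values was not tested, and in such bulk RNA a change in the number of cells of a kind and a change in the RNA per cell cannot be told apart. LNA Malat1 replicates 1 and 3 differed by less than the sampling noise over all genes with at least 20 reads (chi-square 0.949 per gene), though not over the 1754 genes with at least 1600 reads (1.121 per gene), and each mean ± SD of that group takes them together as 1 sample (n = 2). All LNA Malat1 libraries were close, since replicates 1 and 2 gave 1.012 per gene (1.664 over genes with at least 1600 reads) and replicates 2 and 3 gave 1.163 (2.063), against 1.842 to 4.228 between LNA Control libraries.

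Of the 33 channel genes, 6 were upregulated and 5 were downregulated in LNA Malat1. Kcnab1, Kcnj4, Kcnk4, and Kcne1 were among the upregulated genes, and Kcnh6, Kcng2, Hcn4, and Kcnmb4 among the downregulated genes. The test was limma on log2(normalized count + 1) over all 15650 genes. It took all 6 libraries, with LNA Malat1 replicates 1 and 3 as separate samples. A gene was called where its Benjamini-Hochberg (BH) adjusted p did not exceed 0.05 and it changed by 1.5-fold or more. The called share was 33.3% of the channel genes against 10.9% of all genes tested. It was 18.2% against 8.0% for higher genes and 15.2% against 2.92% for lower genes. Kcnk4, Kcnh6, and Kcne2 had a mean under 5 in the group where they were lower and so reached the mean of 5 only through the other group. Counting only genes with a mean of at least 5 in each group, a choice made after the values were seen, 5 of 30 channel genes were higher and 4 were lower, or 16.7% against 6.35% and 13.3% against 3.0% of 14921 genes. Without the fold minimum, 6 channel genes were higher and 9 lower, or 45.5% against 28.3% of all genes tested, and Kcnh2 and Kcnj11 were among the 4 lower genes that this added. The groups did not overlap in 18 of the 33 genes, or 54.5%, against 41.3% of all genes tested. The median log2 fold change was 0.01 over the channel genes and 0.02 over all genes tested, after the authors' scaling between libraries. With quantile normalization it was -0.19 over the channel genes and -0.0 over all genes tested. With a mean of at least 50 it was -0.22 over the channel genes and -0.03 over all genes tested.

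**Figure D1:**
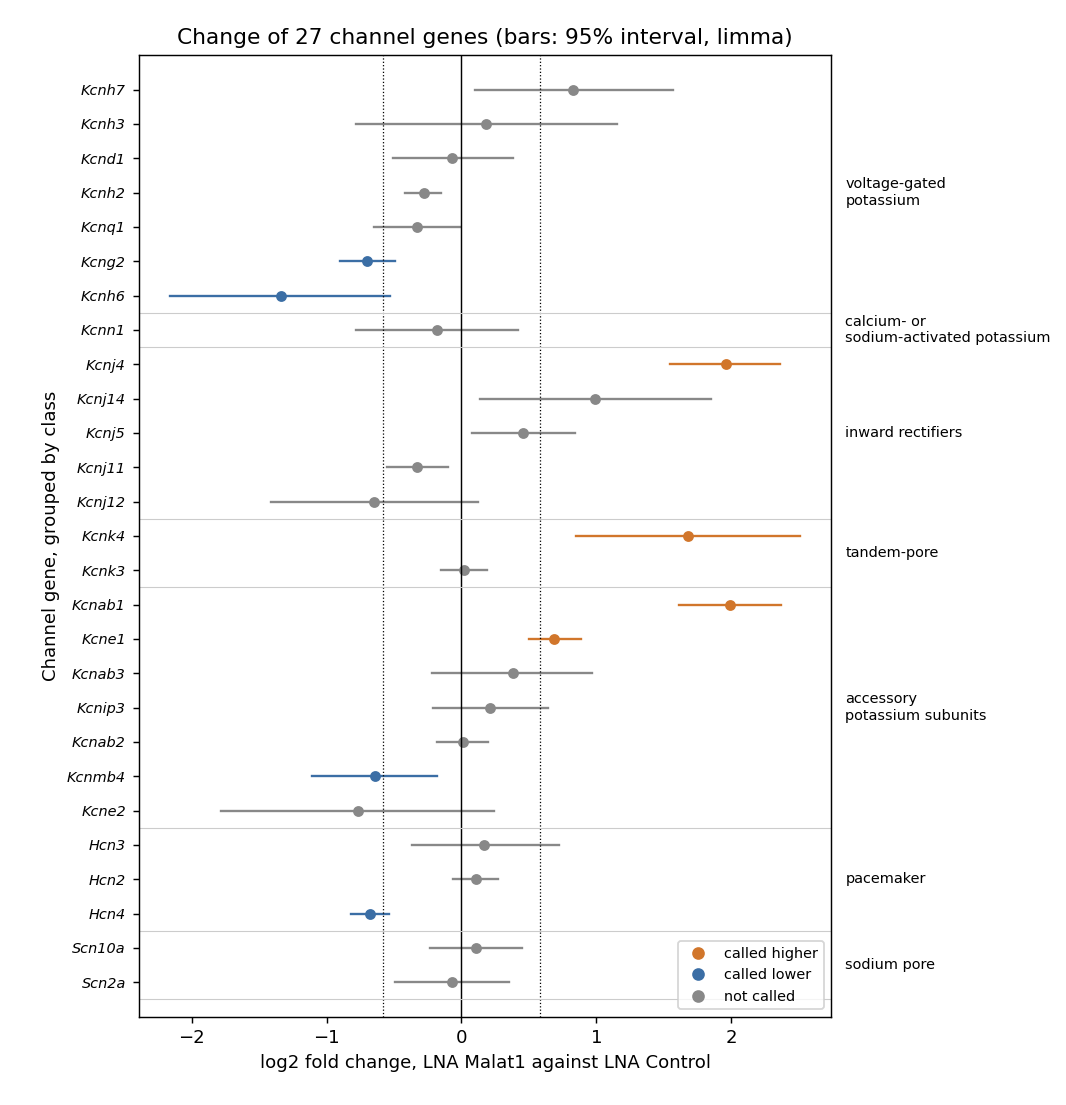
The plot gives the log2 fold change of 27 of the 33 channel genes (x axis, LNA Malat1 against LNA Control) with its unadjusted 95% interval from limma as a bar, grouped by class on the y axis. Dotted lines mark the 1.5-fold minimum, and the genes called higher (orange) reach 1.99 for Kcnab1 while those called lower (blue) reach -1.34 for Kcnh6.

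The change of a gene in these data goes with its level, and the channel genes cover a wide range of levels. Among all genes with a mean from 5 to below 20 normalized counts, the median log2 fold change was 0.37 and 17.2% were called higher, against 1.11% called lower. In this range lay 10 channel genes, with 1 called higher (Kcnk4) and 2 called lower, among them Kcnh6. Kcnk4 and Kcnh6 reached the mean of 5 only through the group where they were higher. From 20 to below 100, 15.4% of all genes were called higher and 4.22% lower, and of 11 channel genes 3 were higher, among them Kcnj4 and Kcnab1, and 1 was lower (Kcnmb4). Among genes with a mean of at least 100, 1.71% were called higher and 3.1% lower, and of 12 channel genes 2 were higher, among them Kcne1, and 2 were lower (Kcng2 and Hcn4). The rises of the low channel genes lay in a range where rises were common.

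**Figure D2:**
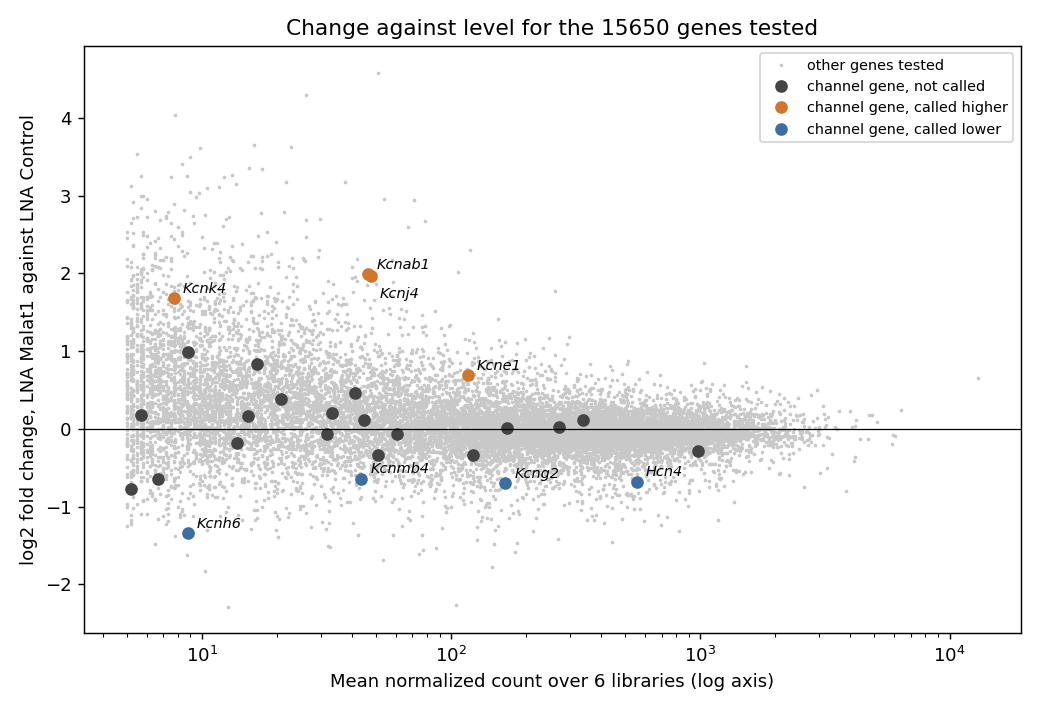
Each point is a gene, with its mean normalized count over the 6 libraries on the x axis (log scale) and its log2 fold change on the y axis, and 27 of the channel genes are drawn over the other genes tested in grey. The grey cloud bends upward below a mean of 20, where its median is 0.37, and Kcnh6 lies below it.

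Levels of different genes were compared per kilobase of exonic length. Kcnh2, the pore of the rapid delayed rectifier, had the highest level at a mean of 202 normalized counts per kilobase over the 6 libraries. It was followed by Hcn2 with 106, Hcn4 with 90.8, Kcnk3 with 68.1, and Kcng2 with 55.1 per kilobase. The lowest of the 33 were Kcnk4, Kcnh7, and Kcnh3 with 1.72, 1.09, and 0.984 per kilobase. The order of the groups was not the same at the top, since Hcn4 had 112 per kilobase in LNA Control and Hcn2 had 102, whereas in LNA Malat1 Hcn2 had 109 and Hcn4 had 69.3.

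**Figure D3:**
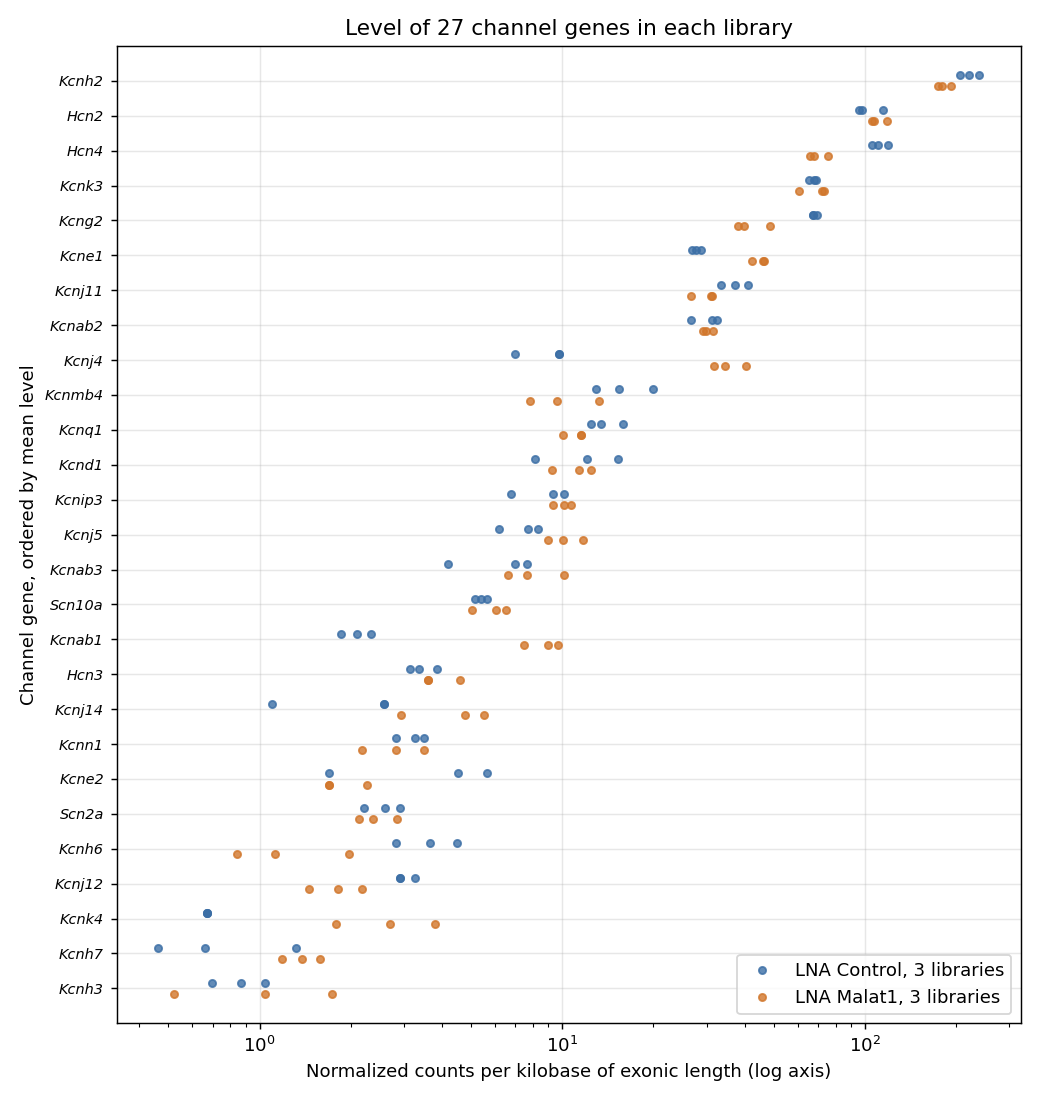
The x axis gives normalized counts per kilobase of exonic length on a log scale and the y axis 27 of the 33 channel genes in order of their mean level, with 3 points for each group. Kcnh2 is highest at a mean of 202 per kilobase, and the groups lie farthest apart in Kcnj4, Kcnab1, and Kcnk4.

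Hcn4, the main pacemaker pore of the sinoatrial node, was downregulated in LNA Malat1. It had 731, 648, and 674 normalized counts in the LNA Control libraries and 404, 415, and 461 in those of LNA Malat1. All LNA Malat1 libraries lay below all LNA Control libraries. The mean was lower, at 423.8 ± 12.4 (SD, n = 2) against 684.3 ± 42.5 (SD, n = 3), and the log2 fold change was -0.68 (SE 0.07, limma, BH-adjusted p = 1.1e-05). With LNA Malat1 replicates 1 and 3 as 1 sample, as in that mean ± SD, the adjusted p was 0.00022 (limma).

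Hcn2 and Hcn3 were not called. Hcn2, which is found in atrium and ventricle, had 366, 312, and 304 in the LNA Control libraries and 336, 343, and 376 in those of LNA Malat1. The groups overlapped, and the 95% interval of its log2 fold change ran from -0.06 to 0.27 (limma, BH-adjusted p = 0.33). Hcn3 had 13 to 16 normalized counts in LNA Control and 15 to 19 in LNA Malat1 (log2 fold change 0.17, limma, BH-adjusted p = 0.64). Hcn3 shares 711 exonic bases, 17.1% of its exonic length, with Pklr on the opposite strand. The authors left out reads that fell on more than 1 gene. Whether their counting was strand-specific is not given in the sources used here, so the reads this removed from antisense pairs are not known.

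The balance of Hcn2 and Hcn4 therefore differed between the groups. The ratio of Hcn2 to Hcn4 per kilobase was 0.864 to 0.959 in LNA Control and 1.56 to 1.59 in LNA Malat1, and being taken within a library it does not depend on the scaling between libraries. The smallest p that exact permutation allows with 3 libraries a group is 0.1, so this ratio and those below, which were picked once the values were known, were not tested.

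**Figure D4:**
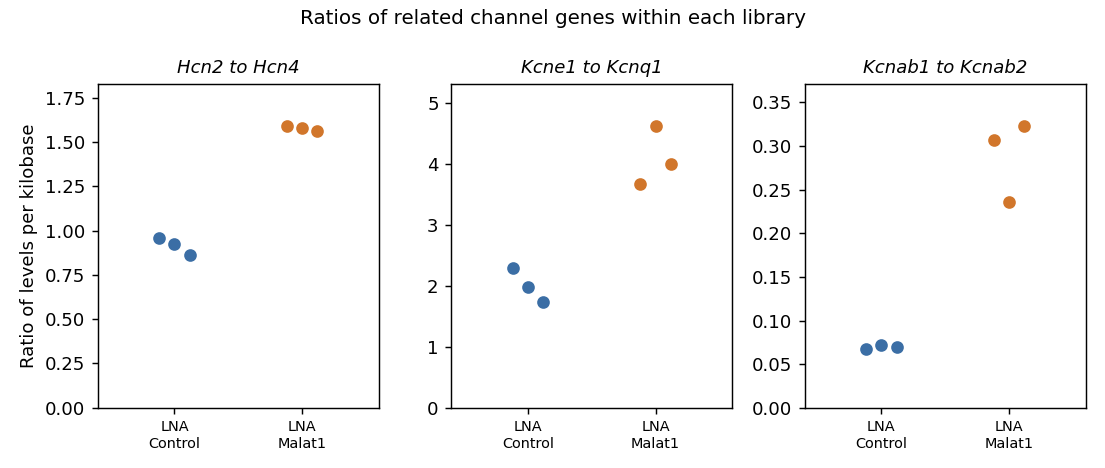
Each panel gives the ratio of the levels per kilobase of a pair of related channel genes within a library (y axis, starting at 0), with 3 points for each group. The ratio of Hcn2 to Hcn4 is 0.864 to 0.959 in LNA Control and 1.56 to 1.59 in LNA Malat1, and the groups are also apart for Kcne1 to Kcnq1 and for Kcnab1 to Kcnab2.

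Hcn4 lies on the plus strand of chromosome 9 (mm10, positions 58823412 to 58863175, 8 exonic blocks). RefSeq starts of the channel genes were compared with the table, and the 250 bases before the start are printed for the 3 genes that have an entry and were called under every alternative that kept the 1.5-fold minimum and tested them, namely Hcn4, Kcnj4, and Kcnab1. Capitals mark the GC box GGGCGG on either strand, the site of Sp family factors. The Hcn4 sequence is that of chr9:58822699-58822948 (GRCm38.p6, plus strand), and its start lies 463 bases before that of the table.
Hcn4: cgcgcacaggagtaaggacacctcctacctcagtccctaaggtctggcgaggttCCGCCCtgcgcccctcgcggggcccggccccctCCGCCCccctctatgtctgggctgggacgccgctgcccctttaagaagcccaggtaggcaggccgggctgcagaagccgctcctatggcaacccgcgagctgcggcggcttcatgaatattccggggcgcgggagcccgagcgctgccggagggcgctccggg
It has 2 GC boxes, 71.2% G and C, and 25 CpG dinucleotides.

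Kcng2 and Kcnh6 were the downregulated voltage-gated potassium channel genes described here. Kcng2 encodes a subunit that forms no channel by itself and modifies the delayed rectifier pores it joins. It had 207, 202, and 202 normalized counts in LNA Control, a narrow range, and 119, 114, and 145 in LNA Malat1. LNA Malat1 averaged 123.0 ± 12.7 (SD, n = 2) and LNA Control 203.7 ± 2.9 (SD, n = 3), and the log2 fold change was -0.70 (SE 0.09, limma, BH-adjusted p = 0.00016). Kcng2 lies on chromosome 18 (positions 80294546 to 80364254).

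The erg genes Kcnh2, Kcnh6, and Kcnh7 encode related pores. Kcnh2 had 1156, 1065, and 998 in the LNA Control libraries and 867, 844, and 928 in those of LNA Malat1, and all LNA Malat1 libraries were lower. Its log2 fold change of -0.28 (SE 0.06, limma, BH-adjusted p = 0.0049) lay under the 1.5-fold minimum, and its adjusted p was 0.057 without the intensity trend (limma). Kcnh6 had 10, 13, and 16 against 7, 3, and 4 normalized counts, a log2 fold change of -1.34 (SE 0.38, limma, BH-adjusted p = 0.018), with groups that did not overlap. The call of Kcnh6 rests on few reads, and it reached the mean of 5 only through LNA Control. Its adjusted p was between 0.053 and 0.07 without LNA Control replicate 2 or 3 or LNA Malat1 replicate 2 or 3 (limma). Kcnh7 had 7, 10, and 20 against 18, 21, and 24, and was not called (log2 fold change 0.83, limma, BH-adjusted p = 0.084). Without LNA Control replicate 3, whose 20 lies inside the LNA Malat1 range, its adjusted p was 0.008 (limma). Leaving out each of the other libraries in turn gave an adjusted p of 0.14 to 0.25 (limma).

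Kcnq1, the pore of the slow delayed rectifier, had 51, 55, and 65 against 47, 41, and 47 normalized counts. Its groups did not overlap, but the fall of 0.33 on the log2 scale did not pass the test (limma, BH-adjusted p = 0.12). Kcnq1 shares 121 exonic bases with its antisense RNA Kcnq1ot1, which had 9 to 14 normalized counts in LNA Control and 5 to 13 in LNA Malat1. Kcnd1, a pore of transient outward channels, had 81, 43, and 64 against 60, 49, and 66 and was not called, and neither was Kcnh3, with 4 to 6 against 3 to 10.

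**Figure D5:**
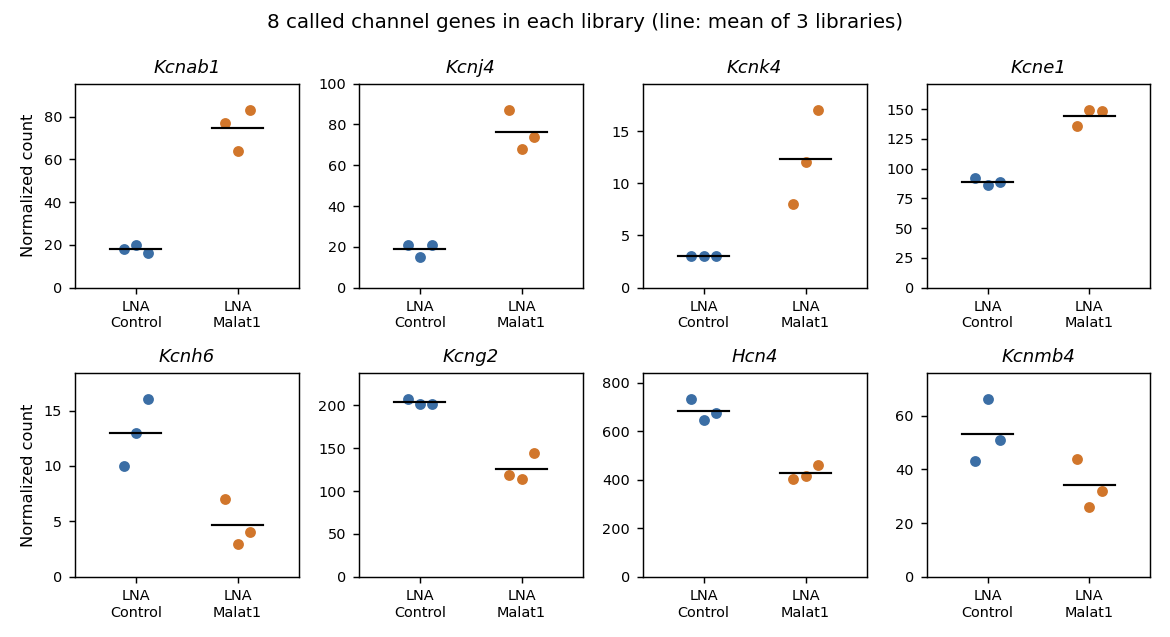
Each panel shows 1 of 8 of the 11 channel genes called in LNA Malat1, with normalized counts on the y axis starting at 0, 3 points for each group, and a line at the mean of the 3 libraries. The first 4 panels are genes called higher and the other 4 are genes called lower, and of these 8 only Kcnmb4 has overlapping groups, at 43 and 44.

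The 5 inward rectifier genes moved in both directions. Kcnj4, a strong inward rectifier of the kind that holds the resting potential, had 21, 15, and 21 normalized counts in the LNA Control libraries and 87, 68, and 74 in those of LNA Malat1. Every LNA Malat1 library was more than 3 times as high as every LNA Control library, and the mean rose from 19.0 ± 3.5 (SD, n = 3) to 74.2 ± 8.8 (SD, n = 2). Its log2 fold change was 1.96 (SE 0.19, limma, BH-adjusted p = 1.1e-05). Kcnj12, another strong inward rectifier, had 8, 8, and 9 against 6, 5, and 4 and was not called (limma, BH-adjusted p = 0.19). Kcnj2, the best known pore of this current in ventricle, was not analysed here.

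Kcnj4 lies on the minus strand of chromosome 15 (positions 79483714 to 79505241, 2 exonic blocks). The 250 bases before its RefSeq start are those of chr15:79505242-79505491 (GRCm38.p6, minus strand), again with GC boxes in capitals.
Kcnj4: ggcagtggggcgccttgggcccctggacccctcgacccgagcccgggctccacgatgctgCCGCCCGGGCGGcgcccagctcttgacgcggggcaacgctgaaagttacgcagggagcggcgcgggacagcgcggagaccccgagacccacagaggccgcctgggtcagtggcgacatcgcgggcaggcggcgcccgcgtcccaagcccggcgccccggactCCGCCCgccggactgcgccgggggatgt
It has 3 GC boxes, the first 2 of which are adjacent and on opposite strands, 77.2% G and C, and 35 CpG dinucleotides.

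Kcnj11 and Kcnj5 encode rectifiers that respond to ATP and to acetylcholine. Kcnj11, the pore of the ATP-sensitive channel, had 151, 123, and 137 normalized counts in the LNA Control libraries and 98, 115, and 114 in those of LNA Malat1, and fell by 0.33 on the log2 scale (limma, BH-adjusted p = 0.034). Its adjusted p was 0.085 with LNA Malat1 replicates 1 and 3 as 1 sample and between 0.056 and 0.14 without any library other than LNA Control replicate 2 (limma). Abcc8, which encodes its sulfonylurea receptor partner, lies 3.76 kilobases from Kcnj11 on the same strand of chromosome 7 and had 503, 421, and 446 against 392, 383, and 428 (log2 fold change -0.18, limma, BH-adjusted p = 0.072). The other receptor gene Abcc9 had 0 in all LNA Control libraries and 0 to 3 in LNA Malat1. Kcnj5, a pore subunit of the acetylcholine-activated channel, had 29, 39, and 36 against 47, 55, and 42, with groups that did not overlap and an adjusted p over the threshold (log2 fold change 0.46, limma, BH-adjusted p = 0.07). Kcnj14 had 3 to 7 in LNA Control and 8 to 15 in LNA Malat1 and was not called (limma, BH-adjusted p = 0.078).

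Of the tandem-pore genes, Kcnk3, a background channel closed by acid, was well expressed and showed no change past the test. It had 270, 275, and 260 normalized counts in the LNA Control libraries and 286, 241, and 292 in those of LNA Malat1, with a 95% interval of the log2 fold change from -0.15 to 0.19 (limma, BH-adjusted p = 0.87). Kcnk4, a background channel opened by membrane stretch and lipids, had 3 in each LNA Control library and 8, 12, and 17 in LNA Malat1, so it reached the mean of 5 only through LNA Malat1. The log2 fold change was 1.68 (SE 0.38, limma, BH-adjusted p = 0.0062), and the adjusted p was 0.051 without LNA Malat1 replicate 3 and 0.057 with quantile normalization (limma). Kcnk4 (chromosome 19, positions 6923966 to 6934515) shares 587 exonic bases, 13.1% of its exonic length, with Catsperz on the same strand, so part of its reads could not be counted. Kcnn1, a small-conductance calcium-activated pore, had 13 to 16 in LNA Control and 10 to 16 in LNA Malat1 (limma, BH-adjusted p = 0.66).

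Among the 7 accessory potassium subunits, Kcnab1 and Kcne1 were upregulated and Kcnmb4 was downregulated. Kcnab1 encodes a beta subunit that speeds the inactivation of Kv channels, and it had the largest log2 fold change of the 33 genes. It had 18, 20, and 16 normalized counts in the LNA Control libraries and 77, 64, and 83 in those of LNA Malat1, and the mean rose from 18 ± 2.0 (SD, n = 3) to 72.0 ± 11.3 (SD, n = 2). The log2 fold change was 1.99 (SE 0.18, limma, BH-adjusted p = 6.5e-06). The related Kcnab2 had 174, 181, and 149 against 163, 176, and 167, with a 95% interval of the log2 fold change from -0.18 to 0.20 (limma, BH-adjusted p = 0.95). Per kilobase, Kcnab1 was 0.0672 to 0.0717 of Kcnab2 in LNA Control and 0.236 to 0.323 of it in LNA Malat1. Kcnab3 had 12 to 22 and 19 to 29 normalized counts in these groups and was not called (limma, BH-adjusted p = 0.33).

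Kcnab1 spans 429 kilobases on the plus strand of chromosome 3 (positions 64949196 to 65378223, 19 exonic blocks) and shares 201 exonic bases with the antisense gene A330015K06Rik. The 250 bases before its RefSeq start, which lies 16 bases after that of the table, are those of chr3:64948962-64949211 (GRCm38.p6, plus strand).
Kcnab1: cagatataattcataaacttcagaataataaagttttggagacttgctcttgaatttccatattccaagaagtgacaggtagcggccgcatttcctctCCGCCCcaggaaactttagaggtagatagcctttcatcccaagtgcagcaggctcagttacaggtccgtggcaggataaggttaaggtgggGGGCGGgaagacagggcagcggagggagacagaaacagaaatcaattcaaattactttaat
It has 2 GC boxes in a sequence of 45.2% G and C with 6 CpG dinucleotides, fewer than in Hcn4 and Kcnj4.

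Kcne1 encodes the single-span subunit that joins Kcnq1 in the slow delayed rectifier. It had 92, 86, and 89 normalized counts in the LNA Control libraries and 136, 149, and 148 in those of LNA Malat1. The replicates of each group lay close together, and the log2 fold change was 0.69 (SE 0.09, limma, BH-adjusted p = 0.00013). The ratio of Kcne1 to Kcnq1 per kilobase was 1.74 to 2.3 in LNA Control and 3.68 to 4.63 in LNA Malat1. Kcne2, a related subunit that joins erg pores, lies 47.9 kilobases from Kcne1 on chromosome 16 on the opposite strand. It had 8, 10, and 3 against 3, 4, and 3, was not called (limma, BH-adjusted p = 0.24), and had a mean of 5.2 normalized counts.

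Kcnmb4 encodes a beta subunit of the large-conductance calcium-activated channel and had 43, 66, and 51 normalized counts in the LNA Control libraries and 44, 26, and 32 in those of LNA Malat1. Its groups overlapped, and the log2 fold change of -0.64 (SE 0.22, limma, BH-adjusted p = 0.041) was called. It was the least stable of the 11 calls and was lost under 9 of 16 alternatives, with adjusted p of 0.18, 0.057, 0.16, and 0.12 without LNA Control replicates 2 and 3 and LNA Malat1 replicates 2 and 3 in turn (limma). Antisense genes cover 20.8% (Kcnmb4os2) and 10.7% (Kcnmb4os1) of its exonic length. The pore that it joins, Kcnma1, had 0 to 2 normalized counts in LNA Control and 2 to 4 in LNA Malat1. Kcnip3, a calcium-binding subunit of transient outward channels that also acts in the nucleus, had 24, 33, and 36 against 38, 36, and 33 and was not called (limma, BH-adjusted p = 0.45).

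Scn10a and Scn2a, pores best known from sensory neurons and from brain, were not called. Scn10a had 45, 43, and 41 normalized counts in the LNA Control libraries and 40, 48, and 52 in those of LNA Malat1 (log2 fold change 0.11, limma, BH-adjusted p = 0.64). Scn2a had 28, 33, and 37 against 27, 36, and 30 (log2 fold change -0.07, limma, BH-adjusted p = 0.81). The sodium channel beta subunit gene Scn4b was at 0 to 2 and 0 to 3 in these groups, under the mean of 5.

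Summed over all 33 genes, the normalized counts were 4453 to 4859 in LNA Control and 3983 to 4406 in LNA Malat1. As scaled by the authors, each LNA Malat1 library was lower. Library totals were also lower, at 4831007 to 4921406 in LNA Control and 4758777 to 4762957 in LNA Malat1. Relative to its total, LNA Malat1 replicate 3 was not below LNA Control replicates 2 and 3. The sum follows the few genes with the most reads, led by Kcnh2, and was not tested.

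Genes that act with the channels were taken from a list of 36 that holds sulfonylurea receptors, intracellular FGFs, ankyrins, calmodulins, and subunits of the sodium pump. Of these, 22 had a mean of at least 5, 1 was called higher and 2 were called lower, or 13.6% against 10.9% of all genes tested, and the median log2 fold change was -0.13. Fgf11, an intracellular FGF of the family that binds sodium channel pores, had 188, 172, and 187 normalized counts in the LNA Control libraries and 95, 89, and 88 in those of LNA Malat1. It fell by 1.0 on the log2 scale (SE 0.09, limma, BH-adjusted p = 5.1e-06), whereas the related Fgf12 and Fgf13 had log2 fold changes of -0.01 and 0.08 and did not pass the test. Nedd4l, a ubiquitin ligase that removes sodium and potassium channels from the membrane, had 463, 469, and 444 normalized counts against 277, 238, and 252. Its log2 fold change was -0.84 (SE 0.07, limma, BH-adjusted p = 2.3e-06). Fgf11 and Nedd4l were called under every alternative that kept the 1.5-fold minimum.

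Ank2, an ankyrin that anchors ion pumps and channels, had 17, 16, and 20 against 36, 30, and 24 and was called (log2 fold change 0.72, limma, BH-adjusted p = 0.031), but its adjusted p was 0.09, 0.14, and 0.092 without LNA Control replicate 2, LNA Malat1 replicate 1, and LNA Malat1 replicate 2 (limma). The call was also lost when replicates 1 and 3 of LNA Malat1 were merged (limma, adjusted p = 0.052) and with quantile normalization (log2 fold change 0.40, limma, adjusted p = 0.21). The ankyrin gene Ank3, whose product holds membrane proteins in place, fell by 0.54 on the log2 scale (limma, BH-adjusted p = 1.1e-05), with 1742, 1645, and 1696 against 1151, 1145, and 1206 and a change under 1.5-fold. The pump subunit gene Atp1b1 fell by 0.26 on the log2 scale (limma, BH-adjusted p = 0.0043).

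The called channel genes had no common position. The 6 upregulated genes lay on 5 chromosomes with a median span of 13.8 kilobases. The 5 downregulated genes lay on 5 chromosomes with a median span of 52.5 kilobases. The median was 32.0 kilobases over the 33 channel genes, 34.6 over those not called, and 17.6 over all genes tested. The difference in span was not tested. RefSeq starts were found for 17 of the 33 channel genes, 6 of them called. In the 250 bases before the start, 12 of the 17 had a GC box, as did all 6 called genes. The share was 32.7% over 32851 such sequences of all genes, which were not limited to the genes tested. For Kcnh2 and Kcnj12, the start used lay 22013 and 43240 bases inside the gene of the table. The median content of G and C was 61.2% in the 17 and 52.4% in all. The TATA box TATAAA and the GATA site AGATAA were in none of the 17, against 12.4% and 9.99% of all. The MEF2 site was in Kcnk4 only, against 3.2% of all, and the NKX2-5 site TNAAGTG in Kcne2 only, against 10.1%. Both strands were searched, and a match is a run of letters and not a site shown to be bound.

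At the mean of 5 that chose the genes, Kcne2, Kcnh3, and Kcnj12 lay just inside with means of 5.2, 5.7, and 6.7 normalized counts. Just outside lay Kcnip2, with 4, 7, and 6 in the LNA Control libraries and 5, 2, and 4 in those of LNA Malat1, Kcnn4, with 1, 0, and 0 against 7, 15, and 4, and Kcna7, with 2, 3, and 3 against 5, 5, and 8. Of 32 channel genes listed for their part in cardiac currents, 16 were among the 33, 4 (Kcnip2, Kcnn3, Kcnma1, and Scn4b) had a mean under 5, and the other 12, among them Kcnd2, Kcnd3, Kcna5, Kcnj2, Kcnj3, and Kcnn2, were not analysed here.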

How the data were processed

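RNA of HL-1 cells was sequenced from 3 LNA Control and 3 LNA Malat1 libraries, grouped by their sample titles. By the study's methods and the labels' tool list, the authors used Trimmomatic 0.39 for trimming and STAR 2.7.7a for alignment to mm10, and featureCounts 1.6.5 for counts on exons, without reads that hit more than 1 gene or place. The deposited values are a score, the counts per gene normalized between libraries and rounded to whole numbers, so tests for raw counts were not used as the main test. The step left by rounding gave between 4512253 and 5592464 reads per library, less certain for LNA Malat1 replicate 2 (factor 0.9942 to 1.0016).

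The limma 3.58.1 test (R 4.3.3) took genes with a mean of at least 5 (lmFit, eBayes with an intensity trend, two-sided) on log2(normalized count + 1). Such fold changes understate the change of low genes. Mean ± SD uses all LNA Control libraries and, for LNA Malat1, the mean of replicates 1 and 3 with replicate 2. Exonic lengths and overlaps come from GENCODE M21 (33 of 33 identifiers matched, 31 with the same coordinates as the table), and upstream sequences from RefSeq (GRCm38.p6). Alternatives were scalings, pseudocounts of 0.1 and 5, the filter left out or set at a mean of 50, the replicate block, no trend, voom on reads so recovered, merging LNA Malat1 replicates 1 and 3, other fold minimums, and leaving out each library. Equal library totals and a count of genes with a mean of at least 5 in each group were added after seeing the data.

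Called genes, cardiac current genes, the highest and lowest genes, and called partners were named by rule. The genes and lists were chosen with earlier results of these data known. Other genes named, such as Ank3, Atp1b1, Fgf12, and Fgf13, were chosen after their values were seen. Some genes are in the counts but are not reported here by name.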

Additional observations from a re-analysis of the deposited data

How the results depend on the processing

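Of the 11 called channel genes, 7, among them Kcnab1, Kcnj4, Kcne1, Hcn4, and Kcng2, were called under every alternative that tested them at the 1.5-fold minimum, and 4, among them Kcnmb4, Kcnh6, and Kcnk4, were not. No called gene changed sign. With each library left out in turn, 5 to 7 channel genes were called higher and 3 to 5 lower, with 3 lower without LNA Control replicate 2 or 3 or without LNA Malat1 replicate 2 or 3, and without a fold change minimum 5 to 8 were higher and 5 to 8 lower. The lowest of these for lower genes, 5, came without LNA Malat1 replicate 2. Over all genes tested, these fits gave 810 to 1582 higher (810 without LNA Malat1 replicate 1 and 812 without replicate 3) and 406 to 475 lower genes.

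With a mean of at least 50, which leaves fewer genes, 317 genes were higher in all, 2 channel genes were higher and 2 lower, 2 were higher without a fold change minimum, 3 classes of channels had a called gene, and the median log2 fold change of the channel genes was -0.22. Quantile normalization gave 748 higher and 718 lower genes in all and a median of -0.19 over the channel genes, and the cause was not tested. The medians over all genes tested were -0.03 with a mean of at least 50 and -0.0 with quantile normalization. LNA Malat1 replicates 1 and 3 as 1 sample gave 831 higher genes in all. The adjusted p was then 0.00068 for Kcng2, 0.00046 for Kcnj4, and 0.00033 for Kcnab1 (limma). Without the intensity trend, 5 channel genes were lower without a fold change minimum. Requiring a 2-fold change gave 742 higher and 99 lower genes in all, 2 channel genes lower, and 0 of the partner genes called, for which limma without a fold minimum gave 8. No fold change minimum gave 2231 higher and 2195 lower genes in all and 9 lower channel genes. Called under an alternative only were Kcnj14, Kcnj12, Kcne2, and Kcnh7.

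Libraries share a replicate number by their labels, and their deviations correlated by 0.086, 0.182, and 0.083 for numbers 1, 2, and 3 over 10490 genes. Libraries with different numbers gave lower values, from -0.189 to 0.046. The main test did not take equal numbers as pairs, and these values do not decide whether they are. With the replicate block, 6 channel genes were called higher and 4 lower, with Kcnmb4 lost (limma, BH-adjusted p = 0.054), against 1297 and 442 in all genes. Below about 20 normalized counts the reads are so few that differences of a few reads decide a call.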

Other observations

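Among the 18 channel genes with a mean under 5, which were not tested, 2 stood at or near 0 in LNA Control and higher in LNA Malat1. Kcnj15, an inward rectifier gene, had 0 normalized counts in each LNA Control library and 7, 7, and 4 in the LNA Malat1 libraries. Kcnn4, the intermediate-conductance calcium-activated pore, had 1, 0, and 0 against 7, 15, and 4. Both were picked after their values were seen. LNA Malat1 also lay above LNA Control without overlap in Kcna7 and Kcnh4. Rises were common at low levels, with 17.2% of all genes with a mean from 5 to below 20 called higher. How many of all genes with a mean under 5 rise in this way was not counted. Among noncoding genes with channel names, Kcnmb4os2 had 4, 1, and 5 normalized counts in the LNA Control libraries and 4, 2, and 4 in those of LNA Malat1.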
